A study of Mus musculus with 16 samples.

Results

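The Zfp genes, which encode zinc finger proteins, were followed in mouse macrophages given dying cells. A gene was included when its symbol was Zfp followed only by digits, Zfp36 aside, and when its mean over all 16 libraries was at least 5 CPM (counts scaled to the library total). This gave 233 of the 373 Zfp genes so named in a table of 55416 genes. The other 140 lay under the limit, 30 of them with no count in any library. Members were thus chosen by their symbol and mean level, so the levels are a description. The rule used no difference between groups, but the members were chosen with earlier results of these data known. All 233 passed the expression filter of the test, and 231 are annotated as protein-coding.

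Total RNA was sequenced from macrophages of the Hoxb8 line without other cells and after 45, 90 or 180 min with apoptotic Jurkat cells, in 4 libraries for each of the 4 groups. Hoxb8 macrophages mature from bone marrow progenitors that the factor Hoxb8 holds in an immature, dividing state, and Jurkat is a human T cell leukaemia line. All groups share this 1 cell line, and no genotype other than the line is given. Neither the harvest time of the macrophages kept alone nor separate cultures for the libraries are given in the labels, so exposure and time in culture cannot be told apart and p-values cover only the spread between these libraries, which may be technical. Library totals ran from 10.7 M to 41.7 M counts, and the biological coefficient of variation over 14168 genes tested was 7.81%. Depth differed by group: totals were 18.7 M to 27.7 M in macrophages alone, 24.4 M to 41.7 M at 45 min, 13.6 M to 17.4 M at 90 min and 10.7 M to 23.4 M at 180 min. All libraries of 45 min were thus deeper than those of 90 and 180 min. The 8 macrophage markers, such as Adgre1, Csf1r and Lyz2, summed to between 9601 and 12300 CPM in every library. At 45 min they summed to 11324 to 12300 CPM, against 10476 to 10719 CPM in macrophages alone, and the part of this difference in the results at 45 min was not tested. Of 16 markers of T or Jurkat cells 8 had no count in any library, among them Cd3e, Cd3g, Cd2 and Tcf7. These markers are mouse genes and Jurkat cells are human, so the counts cannot show how much Jurkat RNA was present. The 16 summed to 11.8 to 15.2 CPM in macrophages alone, 9.72 to 11.1 CPM at 45 min, 9.49 to 12.2 CPM at 90 min and 11.3 to 15.9 CPM at 180 min, most of it from Cd28. In bulk RNA such as this, fewer cells of a type and less RNA per cell cannot be told apart.

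Most Zfp proteins hold rows of C2H2 zinc fingers, small loops folded around a zinc ion by a pair of cysteines and a pair of histidines, each of which reads a few bases of DNA. Many also start with a KRAB domain, which recruits the scaffold protein TRIM28 and, through it, the histone methyltransferase SETDB1 and heterochromatin proteins. KRAB zinc finger genes lie in clusters of recent duplicates, and many of their proteins silence retroviral elements in the genome. In the translated transcripts, 108 members had a KRAB sequence pattern, 123 did not, and 2 had no coding sequence. The same pattern was found in 302 of 21708 coding genes (1.39%). The number of finger motifs per protein ranged from 0 to 37 with a median of 11, and the medians were 12 for members with the KRAB pattern and 8 for those without. By chromosome, 56 members lay on 7, 34 on 17 and 19 on 13.

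Most Zfp genes were expressed at low levels. The median of the 16-library means was 17.1 CPM and the range 5.07 to 286.5 CPM. The 12 highest were Zfp106, Zfp710, Zfp871, Zfp638, Zfp445, Zfp281, Zfp91, Zfp207, Zfp263, Zfp516, Zfp148 and Zfp655, from 286.5 CPM for Zfp106 down to 105.1 CPM for Zfp655. Zfp106 encodes an RNA-binding protein, Zfp91 a ubiquitin ligase and Zfp207 a protein of the mitotic spindle. Per kilobase of exon the order changed: Zfp710 was highest at 36.1 CPM per kb, followed by Zfp263 and Zfp281 at 27.7 each, Zfp106 at 27.5 and Zfp869 at 25.8, against a member median of 3.63. The members just inside the limit were Zfp951, Zfp707 and Zfp956, at 5.16, 5.13 and 5.07 CPM, and the genes just outside it were Zfp689, Zfp931 and Zfp873, at 4.86, 4.84 and 4.69 CPM.

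**Figure D1:**
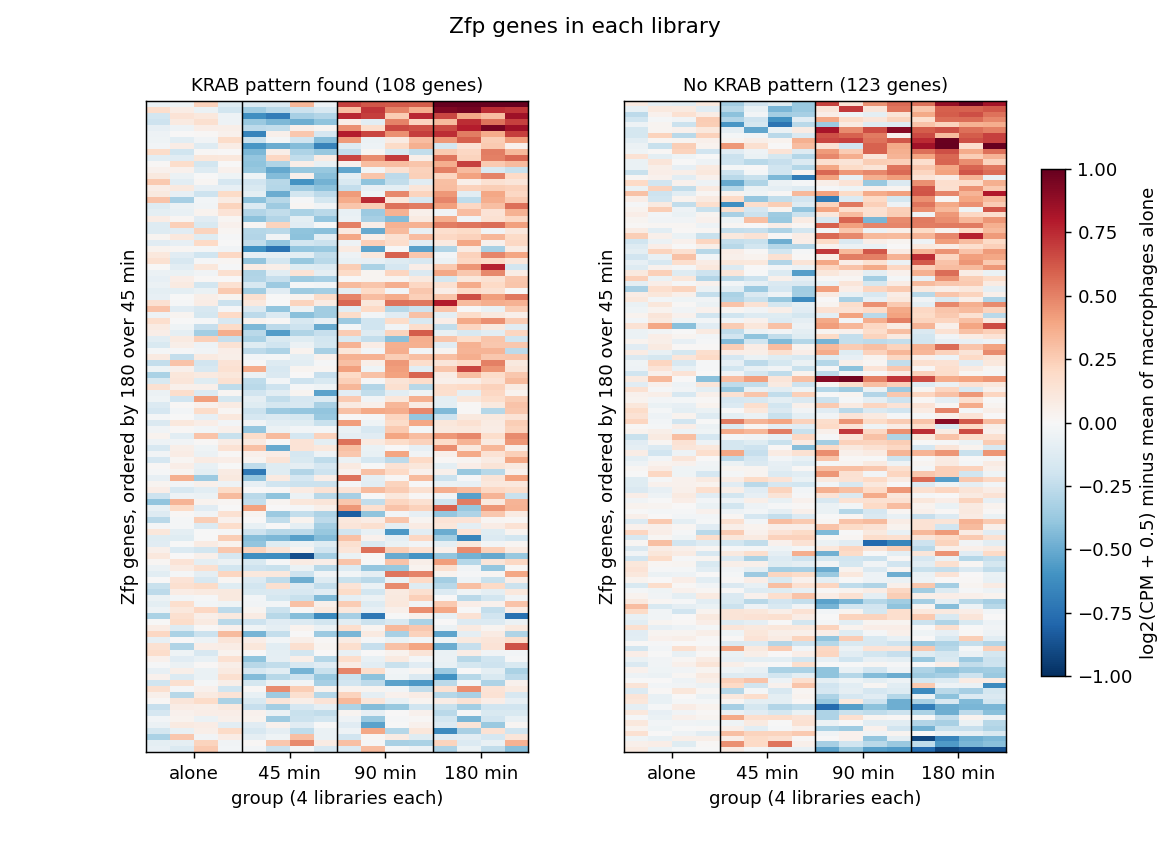
Every Zfp gene with a translated transcript (rows) in each of the 16 libraries (columns), as log2(CPM + 0.5) minus the mean of the 4 libraries of macrophages alone; the 108 genes with a KRAB pattern are on the left and the 123 without on the right, each ordered by the fold change of 180 over 45 min. Blue prevails in the 4 libraries of 45 min, red in the upper rows at 90 and 180 min.

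Of the 233 members, 121 (51.9%) differed somewhere among the 4 groups (edgeR's quasi-likelihood F test, Benjamini-Hochberg adjusted p under 0.05), against 44.6% of all genes tested. Among coding genes with a mean of at least 5 CPM, which share the members' level limit, the figure was 55.4%, so the share that changed was near the background. The level was lowest at 45 min for 136 members, in macrophages alone for 41, at 90 min for 31 and at 180 min for 25. It was highest at 180 min for 105 members, at 90 min for 69, in macrophages alone for 40 and at 45 min for 19. These lowest and highest groups were counted for members only, so the counts cannot be read as particular to them. The summed level of all members was 6226 to 6334 CPM in the 4 libraries of 45 min, against 6621 to 6798 CPM in macrophages alone, and these ranges did not overlap. At 90 min it was 6681 to 6894 CPM and at 180 min 6572 to 6973 CPM, both overlapping with macrophages alone. The dip at 45 min was a fall to 6271.6 ± 47.9 CPM, against 6710.7 ± 75.6 CPM in macrophages alone (SD, n = 4 each).

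Promoter sequence was available from RefSeq (GRCm38.p6, from 250 bases before to 50 after the gene's start) for 195 members. A 9-base motif, ACTACANTT (N is any base), was found on either strand in 27 of them (13.8%), against 489 of 27025 genes with a promoter in the table (1.81%) and 249 of 7340 coding genes with a mean of at least 5 CPM (3.39%). The motif was chosen after the promoters of 2 members had been looked at, and shortened after a longer form had been counted. It is part of an element bound in human cells by ZNF143, whose mouse counterpart Zfp143 is itself a member; a match describes the letters only. It stood in 16 of 96 promoters of members with the KRAB pattern (16.7%) and in 11 of 98 of members without (11.2%). Members called higher at 180 than at 45 min held it in 12 of 81 promoters (14.8%), and members not called in that comparison in 14 of 103 (13.6%). Shown are 80-base windows from the 5 members with the largest rises at 180 over 45 min among those with a match before the gene's start, with the match in capitals, each 5′ to 3′ on the gene's strand.
Zfp28, chr7:6383126-6383205, plus strand: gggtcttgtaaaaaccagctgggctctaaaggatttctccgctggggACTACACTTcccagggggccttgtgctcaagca
Zfp60, chr7:27731308-27731387, plus strand: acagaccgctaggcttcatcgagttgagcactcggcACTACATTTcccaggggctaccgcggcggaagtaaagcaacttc
Zfp420, chr7:29859884-29859963, plus strand: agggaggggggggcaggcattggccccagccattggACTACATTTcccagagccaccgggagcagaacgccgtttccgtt
Zfp738, chr13:67683522-67683601, minus strand, match on the opposite strand of the gene: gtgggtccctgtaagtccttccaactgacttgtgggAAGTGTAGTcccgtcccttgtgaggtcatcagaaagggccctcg
Zfp317, chr9:19621841-19621920, plus strand: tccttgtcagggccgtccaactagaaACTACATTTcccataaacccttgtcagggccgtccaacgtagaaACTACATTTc
In all 5 windows the match stood next to a run of at least 3 C on its own strand. The fold changes of these 5 at 180 over 45 min were 1.13 for Zfp28, 1.096 for Zfp60, 0.49 for Zfp420, 0.35 for Zfp738 and 0.33 for Zfp317.

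Other motifs were counted on both strands of the same promoter windows. The ETS motif CCGGAAGT was found in 26 of 195 member promoters (13.3%), against 11.1% of coding genes with a mean of at least 5 CPM and 4.31% of all genes. The cyclic AMP response element TGACGTCA was in 4.62% of member promoters, against 3.88% and 2.03% of those sets. For the E-box CACGTG the figures were 7.69%, 12.7% and 8.09%. The EGR motif GCGTGGGCG, 9 bases long, was in 0 of 195 member promoters, against 1.58% and 0.707%; these letters were not in these windows.

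The earliest time showed mostly falls. At 45 min 30 members fell and 4 rose, 12.9% and 1.72% of the 233. Of all genes tested, 6.11% were called lower and 4.69% higher (10.8% in all), and of coding genes with a mean of at least 5 CPM 6.48% and 6.87%. The median log2 fold change was -0.12 over the members, 0.00 over all genes tested and 0.02 over those coding genes. None of the 34 changes reached 2-fold. Falls were found for 17 of the 108 members with the KRAB pattern (median -0.16) and rises for 0, and for 12 falls and 4 rises among the 123 others (median -0.06); the difference between these sets was not tested. With a trend of each library's values on gene length and GC content removed, 17 members were called lower in place of 30, with a median of -0.06. Of the 108 with the KRAB pattern 4 then fell and 1 rose (median -0.04), and of the 123 others 12 fell and 5 rose (median -0.07). The lower median of the KRAB set was thus not seen in that setting.

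The largest fall at 45 min was that of Zfp39 (ENSMUSG00000037001), a KRAB member on chromosome 11. Its level was 4.55, 4.53, 3.71 and 5.62 CPM at 45 min, against 7.83, 7.25, 7.51 and 6.38 CPM in macrophages alone. Every library of 45 min lay under every library of macrophages alone, and the log2 fold change was -0.65 (SE 0.17, adjusted p = 0.00498). This call held under every alternative tried. Zfp950 (ENSMUSG00000074733), a KRAB member with 17 finger motifs, had 12.1, 12.9, 13.52 and 11.4 CPM at 45 min, against 18.1, 19.5, 16.8 and 19.5 CPM in macrophages alone (log2 fold change -0.57, SE 0.11, adjusted p = 8.77e-05). Its groups were also apart, but with gene length and GC content taken out as a trend it was not called (adjusted p = 0.183).

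Zfp704 (-0.43, adjusted p = 0.00206) kept its call under every alternative, but its groups overlapped, so it was not among these 10. Zfp442 (-0.56), Zfp951 (-0.51), Zfp60 (-0.51), Zfp606 (-0.47), Zfp759 (-0.43), Zfp59 (-0.41), Zfp287 (-0.40) and Zfp455 (-0.34) made up the rest of the 10, and all 8 lost the call with the length and GC trend removed. Each also lost it without at least 1 library. For Zfp60 these were library 2 of either group, for Zfp442 libraries 1 and 2 of 45 min and 2 of macrophages alone, and for Zfp606 libraries 2, 3 and 4 of 45 min and 2 and 3 of macrophages alone. Zfp59 lost it without libraries 3 and 4 of 45 min or 1, 2 and 3 of macrophages alone, and Zfp951 and Zfp455 without any 1 library of either group, Zfp455 also without library 4 of 90 min. Zfp287 and Zfp759 lost it without any 1 of libraries 1, 3 and 4 of 45 min, any 1 of macrophages alone or library 3 of 90 min, and Zfp759 also without library 1 or 4 of 90 min. Among abundant members, Zfp652, whose human counterpart partners the corepressor CBFA2T3, fell to 77.0, 90.7, 76.6 and 85.2 CPM at 45 min, against 107, 108, 98.3 and 103 CPM in macrophages alone (-0.34, SE 0.06, adjusted p = 1.43e-05). The RNA-binding protein gene Zfp106 had 292, 294, 263 and 279 CPM at 45 min, against 325, 319, 324 and 321 CPM in macrophages alone (-0.19, SE 0.04, adjusted p = 0.00139). Both kept the call under every alternative and had separate groups. Genes on the opposite strand overlap 26.1% of the exon bases of Zfp106, 19.3% of those of Zfp652 and 11.4% of those of Zfp39, and a gene on the same strand 11.8% of those of Zfp652. Of the 75-base windows of the transcript, 39.1% of those of Zfp59 and 21.7% of those of Zfp442 also occur in another gene, so the counts of both are uncertain.

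Of the 4 rises at 45 min, 3 had groups that did not overlap. Among all genes tested, called or not, groups did not overlap for 16.9% at 45 min over macrophages alone. The 4 rises were already called by the test, so this share is not a background for them. In the other comparisons that share was 21.2% at 90 min and 28.6% at 180 min over macrophages alone, 25.1% at 90 over 45 min, 12.3% at 180 over 90 min and 32.3% at 180 over 45 min. Zfp408 had 24, 21.2, 22 and 19.6 CPM at 45 min, against 19.4, 16.3, 14.5 and 16.6 CPM in macrophages alone (0.37, SE 0.10, adjusted p = 0.0109). Zfp513 rose by 0.25 (SE 0.07) and Zfp703, a partner of the Groucho corepressors, by 0.22 (SE 0.07). All 3 lost the call with the length and GC trend removed and without library 1 of 45 min, and Zfp408, Zfp513 and Zfp703 also without library 3, 4 and 2 of macrophages alone. The remaining 1 was Zfp821, at 32.1, 26.7, 34.0 and 24.1 CPM at 45 min, against 24.1, 24.3, 21.3 and 23.4 CPM in macrophages alone (0.32, SE 0.09, adjusted p = 0.0134). Its groups overlapped, and the call was lost without library 1 or 3 of 45 min.

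**Figure D2:**
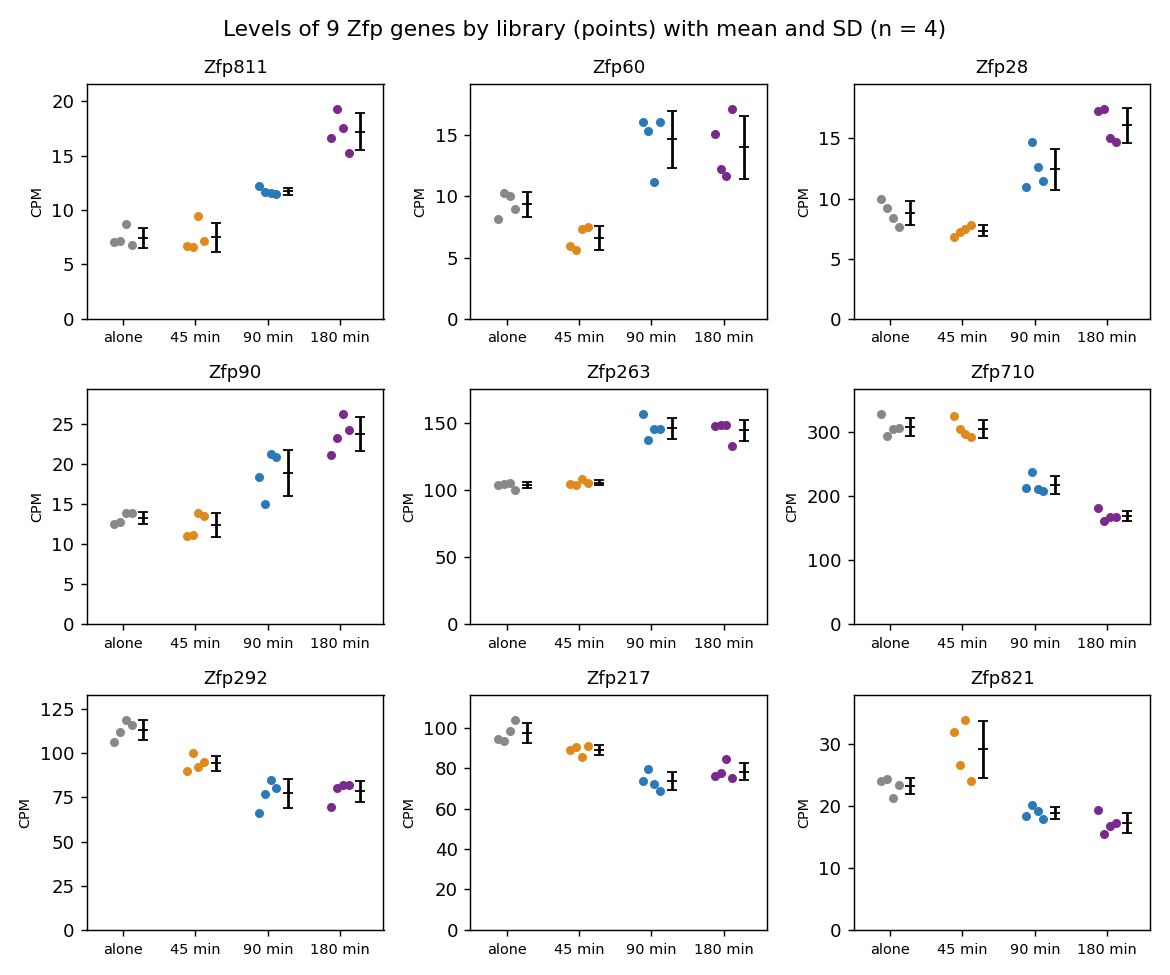
Levels in CPM (vertical axes, from 0) of 9 Zfp genes in macrophages alone and at 45, 90 and 180 min; each point is a library, and the bar beside each group is its mean and SD (n = 4). Zfp811 stood at 15.3 to 19.3 CPM at 180 min, against 6.76 to 8.76 CPM in macrophages alone, and Zfp710 at 162 to 181 CPM, against 295 to 328 CPM.

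At 90 min the members that changed against macrophages alone mostly rose. The test called 36 higher and 12 lower, 15.5% and 5.15% of the members, against 11.1% and 9.97% of all genes tested (21.1% in all) and 12.2% and 14.8% of coding genes with a mean of at least 5 CPM. The median log2 fold change was 0.07 over the members and 0.00 over all genes tested. Among KRAB members 17 rose and 2 fell, and among the others 19 rose and 10 fell.

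Zfp263 had the smallest p among the 10 largest rises at 90 min. It stood at 157, 138, 146 and 146 CPM at 90 min, against 104, 105, 105 and 100 CPM in macrophages alone, with no overlap (0.50, SE 0.05, adjusted p = 7.74e-12). Zfp692 had the largest rise, with 15.2, 15.8, 11.3 and 13.2 CPM at 90 min and 8.37, 9.91, 7.85 and 5.74 CPM in macrophages alone (0.79, SE 0.14, adjusted p = 7.50e-06). Zfp367 stood at 18.4, 14.3, 16.3 and 19.6 CPM at 90 min, against 8.98, 10.4, 10.5 and 11 CPM in macrophages alone (0.75, SE 0.12, adjusted p = 2.85e-06). The other 7 were Zfp458 (0.70), Zfp472 (0.66), Zfp811 (0.65), Zfp60 (0.65), Zfp672 (0.53), Zfp90 (0.51) and Zfp28 (0.49), of which Zfp458, Zfp811, Zfp60, Zfp90 and Zfp28 have the KRAB pattern. All 10 kept the call under every alternative. Zfp60 thus fell at 45 min and rose at 90 min against the same macrophages alone: its 4 libraries of 90 min held 16.1, 15.3, 11.2 and 16.1 CPM and its 4 of macrophages alone 8.11, 10.3, 10.04 and 8.96 CPM.

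Of the 12 falls at 90 min, 10 were of members without the KRAB pattern. Falls made up 8.13% of the 123 members without it and 1.85% of the 108 with it. Of all genes tested 9.97% fell, and of coding genes with a mean of at least 5 CPM 14.8%, so neither class exceeded those shares. Zfp710, the highest member per kilobase, stood at 214, 238, 211 and 208 CPM at 90 min, against 328, 295, 305 and 307 CPM in macrophages alone (-0.51, SE 0.05, adjusted p = 7.09e-13). Zfp292 had 66.3, 77.1, 85.1 and 80.5 CPM at 90 min and 106, 112, 119 and 116 CPM in macrophages alone (-0.55, SE 0.06, adjusted p = 1.24e-10). Zfp217, a subunit of CtBP and CoREST corepressor complexes, had 73.8, 79.9, 72.1 and 68.9 CPM at 90 min and 94.4, 93.4, 98.7 and 104 CPM in macrophages alone (-0.40, SE 0.06, adjusted p = 8.96e-08). None of these 3 groups of 90 min overlapped with macrophages alone, which their choice required. Zfp318 (-0.41), Zfp652 (-0.30), Zfp592 (-0.25) and Zfp106 (-0.20) also fell and kept the call throughout. Zfp444 (-0.33), Zfp821 (-0.30) and Zfp687 (-0.22) were called, but each lost the call without library 1 or 4 of 90 min or library 1 of macrophages alone; Zfp821 also lost it without library 2 of macrophages alone and Zfp687 without library 3.

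At 180 min 56 members were higher and 17 lower than in macrophages alone, 24.03% and 7.30%. Of all genes tested 15.1% were higher and 16% lower (31.1% in all), and of coding genes with a mean of at least 5 CPM 17.1% and 23.3%. The members' median log2 fold change was 0.10, against 0.01 over all genes tested and -0.03 over those coding genes. KRAB members gave 24 rises and 3 falls, the others 32 rises and 14 falls. Removing the length and GC trend left 26 and 3 among KRAB members and 37 and 15 among the others.

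**Figure D3:**
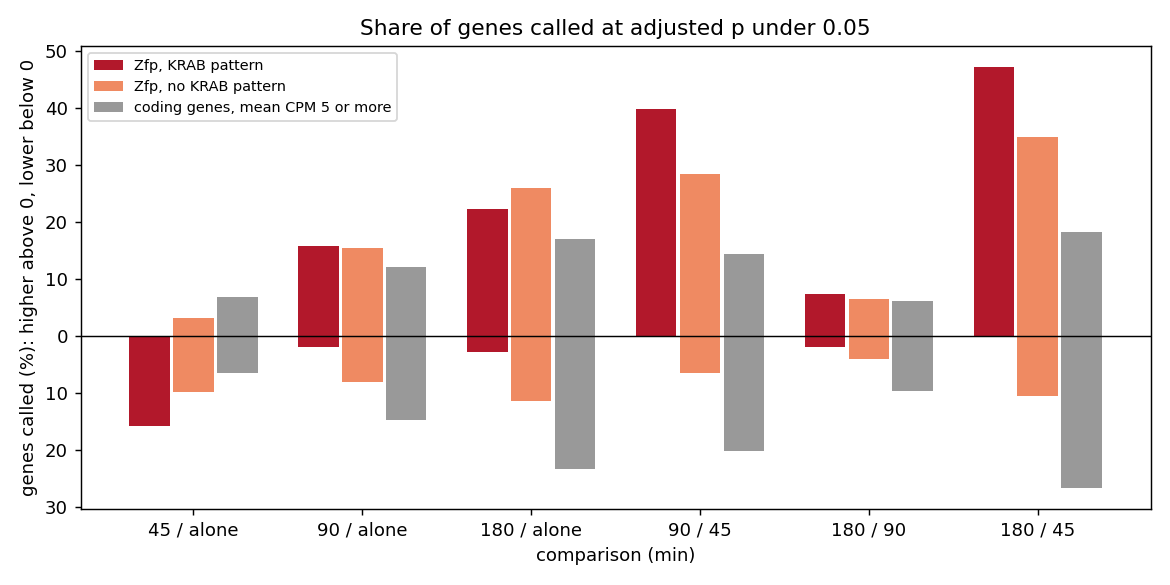
Percent of genes called higher (bars above 0) and lower (bars below 0) at an adjusted p under 0.05 in each of the 6 comparisons, for Zfp genes with a KRAB pattern, Zfp genes without and coding genes with a mean of at least 5 CPM. At 180 over 45 min 51 of 108 KRAB members were higher and 0 lower.

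Zfp811 (ENSMUSG00000055202), a KRAB gene on chromosome 17, had the largest rise at 180 min and was the 1 member to change 2-fold or more against macrophages alone. It stood at 16.6, 19.3, 17.5 and 15.3 CPM at 180 min, against 7.07, 7.17, 8.76 and 6.76 CPM in macrophages alone (1.20, SE 0.13, adjusted p = 1.29e-11). Over the series it averaged 7.44 ± 0.90 CPM in macrophages alone, 7.47 ± 1.33 at 45 min, 11.7 ± 0.315 at 90 min and 17.2 ± 1.70 at 180 min (SD, n = 4 each). Macrophages alone and 45 min overlapped. All libraries of 90 min were higher than both, and all of 180 min higher still.

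A set of KRAB and other genes rose with it. Zfp28 had 17.2, 17.5, 15 and 14.7 CPM at 180 min, against 9.95, 9.24, 8.38 and 7.67 CPM in macrophages alone (0.86, SE 0.12, adjusted p = 6.69e-08). Zfp90 had 21.2, 23.2, 26.2 and 24.3 CPM at 180 min and 12.5, 12.8, 13.9 and 13.8 CPM in macrophages alone (0.85, SE 0.11, adjusted p = 2.42e-09). On 79.5% of the exon bases of Zfp90 another gene is annotated on the opposite strand, and the strand setting of the counting is not given in the sources used here, so reads of that gene cannot be told apart from its own. Zfp329 had 23.9, 30.1, 32.5 and 29.3 CPM at 180 min and 17.3, 15.2, 15.1 and 17.4 CPM in macrophages alone (0.84, SE 0.10, adjusted p = 1.04e-09). The others of the 10 largest rises were Zfp472 (0.79), Zfp458 (0.62), Zfp213 (0.60), Zfp606 (0.60), Zfp367 (0.60) and Zfp326 (0.59), the last a subunit of a complex that joins elongating polymerase to splicing. All 10 kept the call under every alternative, and opposite-strand overlap touched 56.6% of the exon bases of Zfp213 and 10.9% of those of Zfp367. Zfp523, named after its values were seen, had a higher fitted fold change than most of these (0.88, SE 0.19, adjusted p = 0.000224), but its library at 4.67 CPM of 180 min overlapped with macrophages alone.

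Among the falls at 180 min that of Zfp710 (ENSMUSG00000048897), a gene on chromosome 7 with 11 finger motifs and no KRAB pattern, was the largest and had the smallest p. Its libraries held 181, 162, 168 and 167 CPM at 180 min, against 328, 295, 305 and 307 CPM in macrophages alone (-0.87, SE 0.05, adjusted p = 8.61e-23). It averaged 308.8 ± 13.95 CPM in macrophages alone, 305.1 ± 14.6 at 45 min, 217.5 ± 13.6 at 90 min and 169.5 ± 8.16 at 180 min (SD, n = 4 each). The level was thus lower at each later time after 45 min, with no overlap between those times. Zfp446 had 10.6, 12.7, 14.4 and 14.8 CPM at 180 min and 19.8, 19.3, 21.2 and 21.2 CPM in macrophages alone (-0.62, SE 0.10, adjusted p = 2.21e-06). Zfp292 (-0.52), Zfp821 (-0.43), Zfp592 (-0.37), Zfp609 (-0.35), Zfp180 (-0.34) and Zfp217 (-0.31) fell under every alternative. Zfp39 (-0.48) lost the call without library 3 of 180 min or any 1 of libraries 1, 2 and 3 of macrophages alone, and Zfp455 (-0.32) without library 1 of 180 min or libraries 1 and 4 of macrophages alone.

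Between 45 and 90 min most members that changed rose. The test called 78 members higher at 90 than at 45 min and 8 lower, 33.5% and 3.43%, against 14.8% and 13.3% of all genes tested (28.1% in all) and 14.4% and 20.1% of coding genes with a mean of at least 5 CPM. The median log2 fold change was 0.17, against 0.02 and -0.03 over those sets. KRAB members gave 43 rises and 0 falls (median 0.22), and the others 35 and 8 (median 0.12). With the length and GC trend removed, KRAB members gave 22 rises and 2 falls (median 0.12) and the others 34 and 8 (median 0.13). Of the 30 members that fell at 45 min, 16 were called higher again at 90 than at 45 min; both comparisons share the libraries of 45 min.

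Zfp60 rose most between 45 and 90 min. It held 16.1, 15.3, 11.2 and 16.1 CPM at 90 min, against 5.92, 5.58, 7.30 and 7.51 CPM at 45 min (1.16, SE 0.14, adjusted p = 1.02e-09), and was the 1 member past 2-fold in this step. Zfp367 (0.88), Zfp458 (0.80), Zfp870 (0.77) and Zfp28 (0.76) followed. The 5 largest falls were those of Zfp821 (-0.62), Zfp710 (-0.49), Zfp292 (-0.29), Zfp687 (-0.28) and Zfp217 (-0.28), of which Zfp687 lost the call with the length and GC trend removed. Zfp821, which had risen at 45 min, stood at 18.4, 20.2, 19.2 and 17.9 CPM at 90 min, under all 4 libraries of 45 min.

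Between 90 and 180 min few members changed. The test called 16 higher and 7 lower, 6.87% and 3% of the members, against 4.45% and 6.97% of all genes tested (11.4% in all) and 6.2% and 9.59% of coding genes with a mean of at least 5 CPM. Zfp811 (0.54), Zfp398 (0.54), Zfp568 (0.50) and Zfp704 (0.44) rose with separate groups and kept the call throughout. Zfp629 rose by 0.40 and lost the call without library 1 or 3 of 180 min or library 2 of 90 min. Zfp446 (-0.52) and Zfp710 (-0.36) fell. Zfp870 (-0.49) and Zfp654 (-0.21) were also called lower, but Zfp870 lost the call without library 1 or 3 of 180 min or any 1 of libraries 2, 3 and 4 of 90 min, and Zfp654 without library 1 or 2 of 180 min or 3 or 4 of 90 min.

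Across the widest interval, 180 against 45 min, 95 members were higher and 13 lower, 40.8% and 5.58%. Of all genes tested 18.3% were higher and 18% lower (36.4% in all), and of coding genes with a mean of at least 5 CPM 18.2% and 26.7%. Rises of at least 2-fold were found for 5 members, Zfp811 (1.20), Zfp28 (1.13), Zfp329 (1.101), Zfp60 (1.096) and Zfp606 (1.07), and falls of that size for 0. Zfp606 had 9.47, 12.9, 11.2 and 12.3 CPM at 180 min, against 5.70, 5.34, 5.19 and 5.54 CPM at 45 min. The largest falls were those of Zfp710 (-0.85), Zfp821 (-0.75), Zfp446 (-0.73), Zfp513 (-0.33) and Zfp143 (-0.30). KRAB members gave 51 rises and 0 falls (median 0.27), and with the length and GC trend removed 35 and 3 (median 0.14). The others gave 43 rises and 13 falls (median 0.17), and with the trend removed 49 and 12 (median 0.20).

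**Figure D4:**
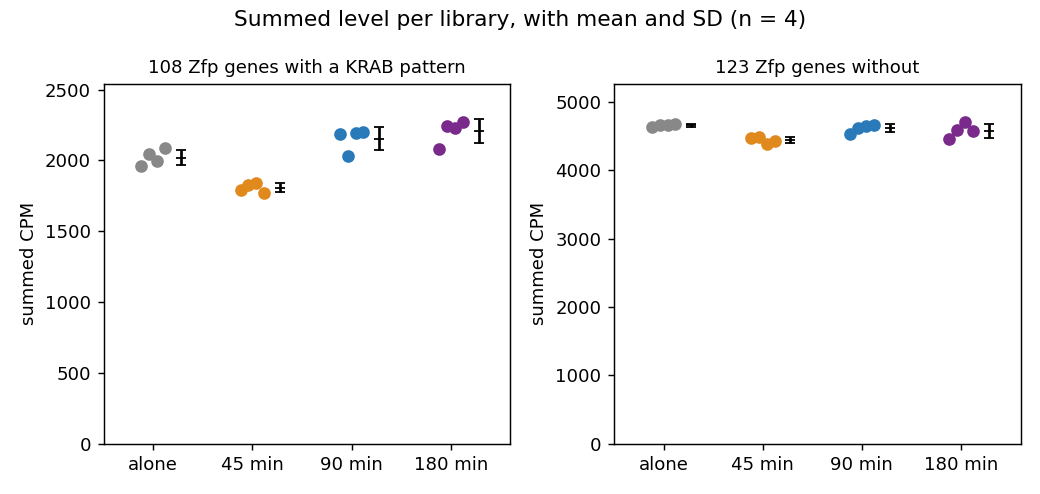
Summed level in CPM (vertical axes, from 0) of the 108 Zfp genes with a KRAB pattern (left) and the 123 without (right) in each library, with mean and SD (n = 4). The KRAB sum lay between 1772 and 1841 CPM at 45 min, under the 1959 to 2086 CPM of macrophages alone.

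Summed over the 108 KRAB genes, the level was 2020.3 ± 55.5 CPM in macrophages alone, 1806.5 ± 31.6 at 45 min, 2154.9 ± 81.7 at 90 min and 2206.4 ± 84.7 at 180 min (SD, n = 4 each). At 45 min every library, at 1772 to 1841 CPM, was under all those of the other groups. At 90 min (2033 to 2203 CPM) and 180 min (2082 to 2270 CPM) the range overlapped with that of macrophages alone (1959 to 2086 CPM). The other 123 members summed to 4661.3 ± 21.8 CPM in macrophages alone, 4440.8 ± 46.1 at 45 min, 4618.3 ± 57.7 at 90 min and 4582.0 ± 100.4 at 180 min (SD, n = 4 each).

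Members differ in base composition and in the number of fingers, and these moved with the fold changes. Median GC content was 40.3% for KRAB members, 48.6% for the others and 49.1% for coding genes with a mean of at least 5 CPM. Across the 233 members, which are genes of the same libraries and not independent replicates, Spearman's rho between GC content and the log2 fold change was 0.42 at 45 min over macrophages alone, -0.47 at 90 over 45 min and 0.03 at 180 min over macrophages alone. GC-poor members therefore lay lower at 45 min, and no such order was seen at 180 min. At 90 over 45 min, 56 rose and 1 fell of the 116 members under the member median of 43.7% GC, and 22 rose and 7 fell of the 117 at or over it. Those were 48.3% and 0.862% of the GC-poor set and 18.8% and 5.98% of the GC-rich set, against 14.8% and 13.3% of all genes tested. The split held within both classes: of GC-poor members 37 of 78 with the KRAB pattern and 19 of 38 without rose in this step, and of GC-rich members 6 of 30 with the pattern and 16 of 85 without. By finger number, 66 rose and 4 fell at 180 over 45 min among the 136 members with at least 10 finger motifs, 23 and 8 among the 74 with 3 to 9, and 5 and 1 among the 21 with fewer than 3. Those were 48.5% and 2.94%, 31.1% and 10.8%, and 23.8% and 4.76%, against 18.3% and 18% of all genes tested. Differences between these classes were not tested. No shares over all genes of like GC content or finger number are given here, so the class differences cannot be read as particular to the members.

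**Figure D5:**
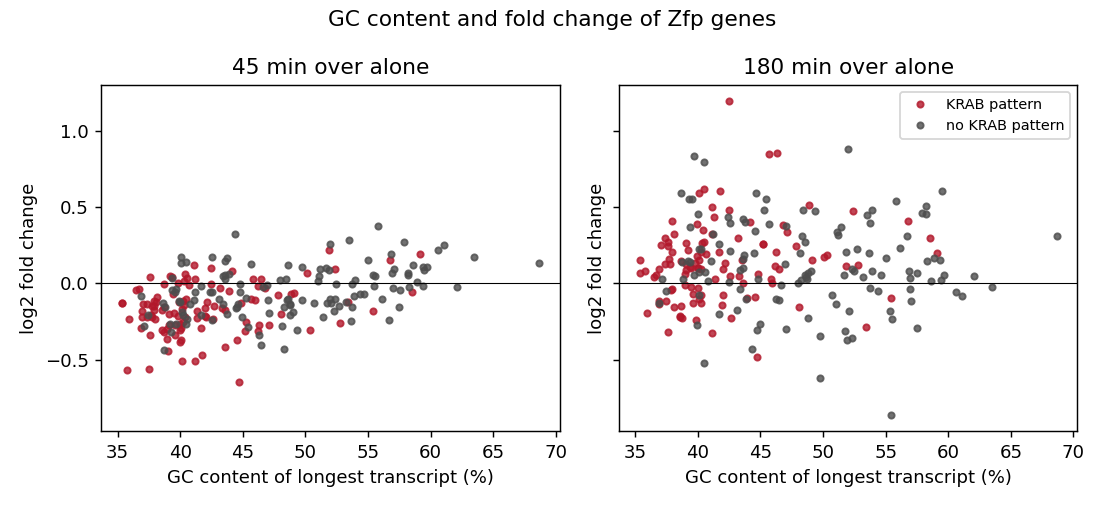
Log2 fold change (vertical axes) of 231 Zfp genes against the GC content of the longest transcript in percent (horizontal axes), at 45 min and at 180 min over macrophages alone; each point is a gene, red with and grey without the KRAB pattern. At 45 min GC-poor genes lie lower (rho 0.42 over all 233), and at 180 min no slope is seen (rho 0.03).

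By known role, 6 members are in a list of 12 genes that silence retroelements or imprinted genes. Against macrophages alone 0 rose and 2 fell at 45 min, 0 changed at 90 min and 2 rose at 180 min; at 180 over 45 min 5 rose and 0 fell. Of all genes tested 4.69% rose and 6.11% fell at 45 min, 15.1% and 16% at 180 min, and 18.3% and 18% at 180 over 45 min, and with 6 genes these shares are coarse. Zfp809, which silences murine leukaemia virus through its primer binding site, had 22.4, 21.2, 21.4 and 21.1 CPM at 180 min, against 16.2, 14.6, 14.1 and 13.4 CPM at 45 min (0.56, SE 0.10, adjusted p = 3.53e-06). Every library of 180 min was higher than those of 45 min. Against macrophages alone it was called lower at 45 min (-0.31) and higher at 180 min (0.26), both calls lost without several libraries: the first without 2, 3 or 4 of 45 min or 1 or 2 of macrophages alone, the second without any 1 of 180 min or 3 or 4 of macrophages alone. Zfp568, which represses a placental promoter of Igf2 in mouse embryos, had 26.3, 25.3, 31.4 and 27.5 CPM at 180 min and 15.8, 22.8, 17.5 and 16.7 CPM at 45 min (0.61, SE 0.10, adjusted p = 1.26e-06). Zfp445, which protects imprints with Zfp57, was 0.21 higher (SE 0.05, adjusted p = 0.000771), and Zfp429 0.50 (SE 0.12). Zfp932, which binds endogenous retroviruses in mouse embryonic stem cells, was 0.35 higher (SE 0.12), a call lost once the trend on length and GC content was removed and without library 2 or 3 of 180 min or 2 or 4 of 45 min. Of the 75-base windows of the transcript, 32.6% of those of Zfp932 and 12.2% of those of Zfp429 also occur in another gene. Zfp57 had no count in any library.

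Of the 18 general regulators of promoters and enhancers some rose and some fell. At 45 min 0 rose and 1 fell, at 90 min 3 rose and 1 fell, and at 180 min 4 rose and 3 fell against macrophages alone. At 45 min that was 0% higher and 5.56% lower, against 4.69% and 6.11% of all genes tested. At 90 min it was 16.7% and 5.56%, against 11.1% and 9.97%, and at 180 min 22.2% and 16.7%, against 15.1% and 16%. The risers at 90 min were Zfp263, Zfp90 and Zfp692. Zfp148, which binds GC-rich promoters, was lower at 180 min, with 93.0, 108, 93.6 and 104 CPM against 115, 117, 122 and 127 CPM in macrophages alone (-0.27, SE 0.05, adjusted p = 3.21e-05). Zfp143 had 26.04, 31.1, 30.9 and 29.4 CPM at 180 min, against 37.3, 35.2, 36.1 and 36.5 CPM in macrophages alone (-0.31, SE 0.08, adjusted p = 0.00213). Zfp281 was also called lower at 180 min (-0.17), a call lost without library 2 of that group. Zfp410, known in mouse and human red cell precursors as an activator of Chd4, was not called at any time against macrophages alone (-0.06, 0.11 and 0.03 at 45, 90 and 180 min).

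Of 12 members that act as adaptors of corepressor or histone methyltransferase complexes, 1 rose and 2 fell at 45 min, 0 rose and 4 fell at 90 min and 0 rose and 4 fell at 180 min against macrophages alone. At 45 min that was 8.33% higher and 16.7% lower, against 4.69% and 6.11% of all genes tested. The 4 falls at each later time were 33.3% of the list, against 9.97% of all genes tested at 90 min and 16% at 180 min. Of coding genes with a mean of at least 5 CPM, 14.8% and 23.3% fell at those times. The median log2 fold change was -0.12 at 180 min, against 0.10 over all members. Zfp217, Zfp292 and Zfp592 fell at both 90 and 180 min. Zfp592, a subunit of a chromatin complex with Zfp687 and ZMYND8, had 55.6, 49.5, 57.8 and 52.0 CPM at 180 min, against 74.8, 65.5, 68.0 and 70.2 CPM in macrophages alone (-0.37, SE 0.06, adjusted p = 1.80e-06). Zfp609, which works with Integrator and Nipbl in mouse cortex, had 39.6, 37.1, 38.4 and 38.4 CPM at 180 min, against 50.6, 47.7, 48.0 and 50.2 CPM in macrophages alone (-0.35, SE 0.07, adjusted p = 0.000113). Zfp644, a partner of the G9a methyltransferases, was lower at 45 min than in macrophages alone (-0.26, SE 0.06, adjusted p = 0.00186), a fall not called once the trend on length and GC content was removed, and was not called at 180 min (0.15, SE 0.06).

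Among 16 members whose proteins act on RNA, the ribosome, ubiquitin or the spindle, 0 rose and 3 fell at 45 min, 2 rose and 2 fell at 90 min and 3 rose and 2 fell at 180 min against macrophages alone. At 45 min that was 0% higher and 18.8% lower, against 4.69% and 6.11% of all genes tested. At 90 min it was 12.5% and 12.5%, against 11.1% and 9.97%, and at 180 min 18.8% and 12.5%, against 15.1% and 16%. Zfp207, which loads the checkpoint protein BUB3 on chromosomes, had 137, 144, 148 and 138 CPM at 180 min, against 115, 121, 116 and 122 CPM in macrophages alone (0.26, SE 0.05, adjusted p = 5.40e-05). Zfp326 had 18.3, 14.2, 17.6 and 18.5 CPM at 180 min, against 9.99, 13.3, 9.33 and 13.4 CPM in macrophages alone (0.59, SE 0.12, adjusted p = 0.000119). In both the groups were apart. Zfp598, which senses collided ribosomes, was not called against macrophages alone (0.11, 0.10 and 0.02 at 45, 90 and 180 min). Zfp318, which controls IgD expression in mouse B cells, fell at 90 min (-0.41, SE 0.08, adjusted p = 5.74e-05).

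Partners of KRAB proteins gave both rises and falls. Of 21 genes of KRAB repression and heterochromatin, 3 rose and 3 fell at 45 min, 1 rose and 5 fell at 90 min and 3 rose and 7 fell at 180 min against macrophages alone. The shares higher and lower were 14.3% and 14.3% at 45 min, 4.76% and 23.8% at 90 min and 14.3% and 33.3% at 180 min. Of all genes tested they were 4.69% and 6.11%, 11.1% and 9.97%, and 15.1% and 16%. Of coding genes with a mean of at least 5 CPM they were 6.87% and 6.48%, 12.2% and 14.8%, and 17.1% and 23.3%. That level was met by 20 of the 21. The scaffold gene Trim28, named with its partner Setdb1 after their values were seen, was lower at 180 min (-0.19, SE 0.05, adjusted p = 0.00357), and Setdb1 was not called (0.05, SE 0.05). Atf7ip, which stabilises SETDB1, fell at all 3 times (-0.19, -0.25 and -0.51). Daxx, a chaperone of histone H3.3, was higher at 45 min (0.20, SE 0.05) and lower at 180 min (-0.76, SE 0.05, adjusted p = 5.89e-19). Of 7 HUSH genes and partners listed, 5 were found under the symbols used. Of these 5, 0 rose and 2 fell at 45 min, against 4.69% and 6.11% of all genes tested. At 90 over 45 min 3 rose and 0 fell, against 14.8% and 13.3%, and with 5 genes these shares are coarse. Fam208a, the TASOR subunit of the HUSH silencing complex, was lower at 45 min (-0.42, SE 0.06, adjusted p = 1.25e-06) and higher at 90 than at 45 min (0.33, SE 0.06).

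Related families outside the naming rule were counted for comparison at 180 over 45 min. Of 34 Zbtb genes tested 12 rose and 3 fell, of 19 Zkscan and Zscan genes 5 rose and 1 fell, and of 19 Zfp genes with a letter after the number 8 rose and 0 fell, against 18.3% and 18% of all genes tested. By chromosome, 13 members rose and 0 fell of the 34 on chromosome 17, 10 and 0 of the 19 on 13, and 23 and 5 of the 56 on 7 in the same comparison. Because many members are duplicates of each other, reads can be lost or shared between them. At least 10% of 75-base windows of the transcript also occurred in another gene for 24 members, and at least 50% for 3, Zfp991, Zfp993 and Zfp97, whose values are uncertain. For 20 members at least 10% of exon bases were overlapped by a gene on the opposite strand.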

How the data were processed

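Total RNA was depleted of ribosomal RNA and made into strand-marking libraries, per the labels' protocols. The authors deposited raw counts per gene for 16 libraries in 1 unnormalized table. STAR 2.7.9a, SAMtools, HTSeq and the build mm39 are named, per the submitters' processing notes; roles, settings, annotation release, strand setting and the handling of human reads were not given in the sources used here. Human reads that resemble mouse genes could be among the counts. Column names give the group only, so libraries were numbered 1 to 4 within a group in file order. Replicates differed by more than sampling noise (chi-square per degree of freedom 3.86 to 9.73 over pairs). Each library counted as 1, but this spread may be technical and cannot show that the cultures were separate. Symbols came from GENCODE M21 for 52083 of 55416 IDs, as did chromosome, length, GC content, translations and the exon overlaps. It is for an earlier build than mm39, so no coordinates from it are printed. The overlaps could differ in the annotation used for counting.

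Members and lists were chosen with earlier results of these data known. Genes were kept by edgeR's filter (minimum count 10, minimum total 15), leaving 14168. The 6 comparisons were contrasts in 1 quasi-likelihood fit with a term for group (edgeR 4.0.16, R 4.3.3) over all 16 libraries after TMM scaling; p-values were adjusted over all genes tested by Benjamini and Hochberg's method, and calls were made under 0.05. Fold changes are unshrunk, and the SE is the coefficient divided by the root of its F statistic. Printed CPM use scaled library sizes, except for the membership limit and the cell type markers. The fit was tested on simulated data. The KRAB pattern and the finger motifs are sequence patterns, not domain annotations. Members named were the 10 largest rises and falls at each time over macrophages alone, and 5 and 5 between times, among called members whose groups did not overlap, the 12 highest, the 3 on either side of the limit, and members of the role lists; up to 4 cofactors were named. Alternatives were DESeq2 1.42.0, its size factors, upper-quartile scaling, other filters, coding genes only, libraries thinned to the smallest total, 2 groups only, a length and GC trend removed (mgcv 1.9.3), an adjusted p under 0.01, member limits of 2 and 10 CPM, and each library left out.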

Additional observations from a re-analysis of the deposited data

Results flagged for a closer look

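Groups of 4 libraries of the named members were looked at for 1 library far from the other 3, judged by its gap to the nearest divided by the range. Of 332 groups, 22 stood out, and chance gives about 1 in 20. Lowest libraries were those of Zfp148 at 45 min (106 CPM) and at 90 min (104 CPM), Zfp263 at 180 min (133 CPM), Zfp292 at 180 min (69.8 CPM), Zfp384 at 90 min (65.8 CPM), Zfp60 at 90 min (11.2 CPM), Zfp652 at 90 min (75.1 CPM) and Zfp759 at 90 min (6.98 CPM). In macrophages alone they were those of Zfp638 (148 CPM), Zfp672 (12.9 CPM), Zfp706 (65.1 CPM) and Zfp759 (6.83 CPM). Highest libraries at 45 min were those of Zfp472 (12.8 CPM), Zfp511 (8.33 CPM), Zfp644 (51.2 CPM), Zfp703 (74.2 CPM), Zfp870 (5.89 CPM) and Zfp932 (15.2 CPM). At 180 min they were those of Zfp24 (50.6 CPM), Zfp574 (32.8 CPM) and Zfp598 (44.7 CPM), and in macrophages alone that of Zfp287 (9.99 CPM).

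Some members were called in opposite directions against macrophages alone at different times, with the difference between those times itself called by edgeR's test. Zfp60 fell at 45 min and rose at both later times, a difference of 1.16 between 90 and 45 min and of 1.10 between 180 and 45 min on the log2 scale. Zfp606 (1.07), Zfp398 (0.84), Zfp704 (0.74) and Zfp809 (0.56) fell at 45 min and rose at 180 min. The fall of Zfp398 at 45 min was near the threshold (-0.28, adjusted p = 0.0476) and was not called under 15 alternatives, among them the DESeq2 test and the omission of library 1, 3 or 4 of 45 min, of 2, 3 or 4 of macrophages alone, of any 1 of 90 min or of 4 of 180 min. The falls of Zfp606 and Zfp809 at 45 min were not called under 7 and 8 alternatives, and that of Zfp704 held under all. Zfp821 rose at 45 min and fell later, with differences of -0.62 between 90 and 45 min and -0.75 between 180 and 45 min.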

How the results depend on the processing

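Of 525 alternative values of the member counts and medians, 484 stayed within 1.5 times the count or the spread between replicates and 41 moved. At 45 min over macrophages alone, members called lower numbered 17 with the length and GC trend removed, 18 with thinned libraries, 19 with no filter and 12 at an adjusted p under 0.01, against 30; rises numbered 0 at that threshold, against 4, and the median was -0.056 with the trend removed. At 180 min over macrophages alone 37 rose at an adjusted p under 0.01, and the median was 0.14 with upper-quartile scaling. At 90 over 45 min the median was 0.12 with the trend removed and 0.19 with upper-quartile scaling. At 180 over 90 min 4 rose at the stricter threshold, and falls numbered 3 with no filter, 3 with the 2 groups only, 4 with upper-quartile scaling and 2 at the stricter threshold. At 180 over 45 min the median was 0.23 with coding genes only, 0.18 with the trend removed, 0.23 with the stricter filter, 0.25 with upper-quartile scaling and 0.17 for members of at least 10 CPM. The cause was not tested.

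With each library left out in turn, members called at 45 min over macrophages alone were 0 to 5 higher, 0 of them without library 1 of 45 min, and 15 to 31 lower, the 15 without library 2 of macrophages alone, with a median of -0.12 to -0.087. At 90 over 45 min 7 to 13 fell, 13 without library 2 of 90 min. At 180 over 90 min 10 to 19 rose, 10 without library 3 of 180 min or 1 of 90 min, and 2 to 7 fell, 2 without library 1 of 180 min. The median at 180 over 45 min was 0.20 to 0.23.

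Of 186 calls of 83 named members, 122 held under every alternative and 64 were lost under at least 1. With the length and GC trend removed, the log2 fold changes of Zfp638 and Zfp644 at 45 min over macrophages alone were 0.074 and 0.0061, against -0.19 and -0.26. No paired analysis was possible because the columns carry no replicate number. The SE at 45 min over macrophages alone was 0.17 for Zfp39, near 6 CPM, and 0.04 for Zfp106, near 287 CPM. The part of depth in this difference was not tested.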
